A study of Homo sapiens with 3 samples.

Results

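The carboxylesterases, arylacetamide deacetylase and the paraoxonases are ester hydrolases of the liver, and this account covers 7 genes chosen by symbol, namely CES1, CES2, CES3, AADAC, PON1, PON2 and PON3, of 21572 gene symbols in the expression table. They were picked with the high CES1 level of both FTO knockdown lines already known, so the values of CES1 against control are given as a description. The libraries came from Hep-G2, an established human hepatoma line. The line sh#7 carried the FTO hairpin TRCN0000246247 and the line sh#2 the FTO hairpin TRCN0000255402, while control cells carried the scramble hairpin SHC002. All 3 cultures were at passage 21 and grew in the same medium. FTO encodes an RNA demethylase, and the design text names sh#7 as the stronger knockdown. With 1 library per group there are no replicates, and what the FTO hairpins did cannot be told apart from differences between single lines.

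Carboxylesterases are serine hydrolases of the endoplasmic reticulum that cut ester and amide bonds in drugs, prodrugs and lipids. CES1 is the main form of human liver, CES2 is best known from the intestine and also occurs in liver, and CES3 is a minor relative. AADAC is a membrane-bound serine hydrolase of the same compartment that removes acetyl groups from arylacetamides and also acts on lipid esters. Paraoxonases are a separate, calcium-dependent family of lactonases: PON1 and PON3 travel in plasma on high-density lipoprotein (HDL), while PON2 stays inside cells.

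The coding sequence around the active-site serine shows how the serine hydrolases relate to each other and why CES1 has to be read beside its pseudogene CES1P1. Each line below gives 60 bases in the coding direction from GENCODE 29 transcripts (build GRCh38). The 15 capitals are the serine codon with the 2 codons before and after it.
CES1: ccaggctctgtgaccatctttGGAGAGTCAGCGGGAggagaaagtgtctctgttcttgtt
CES1P1: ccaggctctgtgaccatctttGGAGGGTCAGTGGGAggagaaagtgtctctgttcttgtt
CES2: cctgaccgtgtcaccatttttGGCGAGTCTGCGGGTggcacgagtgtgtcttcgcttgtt
CES3: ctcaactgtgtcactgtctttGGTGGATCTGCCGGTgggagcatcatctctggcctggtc
AADAC: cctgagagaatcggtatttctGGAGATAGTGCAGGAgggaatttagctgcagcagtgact
CES1P1 differed from CES1 at 2 of these bases, A26G and C32T, counted from 1 at the left end. CES2 shared 43 of the 60 bases with CES1 and CES3 shared 35. AADAC, aligned by its own serine motif and without gaps, shared 26. The serine codon was TCA in CES1 and CES1P1, TCT in CES2 and CES3 and AGT in AADAC. Over the whole coding sequence, CES1 and CES1P1 were 96.3% identical across 1701 aligned bases, against 68.6% for CES1 with CES2 and 66.0% for CES1 with CES3. Of all stretches of 100 bases in the CES1 coding sequence, 24.7% also occurred letter for letter in CES1P1, and 39.8% of stretches of 50 bases did, so fragments from those stretches cannot be assigned by sequence alone. No stretch of 50 bases was shared between CES1 and CES2 or CES3. The paraoxonase coding sequences were 70.0% to 71.9% identical in pairs and shared no stretch of 50 bases.

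The labels were checked first. FTO was at 2.55 FPKM (a level scaled by transcript length and by the library's total) in sh#7, 5.29 FPKM in sh#2 and 9.02 FPKM in control cells, an order that follows the design text. Depth in control, estimated from single-fragment steps in low genes, was about 46 M (mega) fragments. Depth in the lines was set from the most common ratio to control in low genes, among ratios close to equality only. That gave 45.6 M in sh#7 and 46.8 M in sh#2, and since closeness to control was built in, it is no result. Hepatocyte markers were all present, and the sum over their 7 genes was 6202 FPKM in sh#7, 11474 FPKM in sh#2 and 12361 FPKM in control. ALB, the albumin gene, was at 1947 FPKM in sh#7, 5501 FPKM in sh#2 and 5468 FPKM in control, and TTR, the transthyretin gene, was at 3.43 FPKM in sh#7, 26.6 FPKM in sh#2 and 61.1 FPKM in control. Of 6 blood and immune markers, PTPRC and CD3E were at 0 in every library, and the lysozyme gene LYZ made up most of their sum, which was 322 FPKM in sh#7, 1354 FPKM in sh#2 and 3258 FPKM in control. Of 6 fibroblast and stellate cell markers, 4 were at 0 in every library and the sum was 1.19 FPKM in sh#7, 1.79 FPKM in sh#2 and 3.77 FPKM in control. PDGFRB, the one of them that averaged 1 FPKM or more, was at 0.616 FPKM in sh#7, 1.69 FPKM in sh#2 and 3.76 FPKM in control. The 5 endothelial markers summed to 0.0621 FPKM in sh#7, 0.204 FPKM in sh#2 and 0.0852 FPKM in control. The part of these marker differences in the results that follow was not tested. In bulk RNA, fewer cells of a kind and less RNA per cell cannot be told apart.

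CES1 was the gene of the 7 that stood far above control in both lines. It was at 277 FPKM in sh#7, 207 FPKM in sh#2 and 65.1 FPKM in control. Both knockdown libraries were high and the control was low. The sh#7 level was 4.26 times that of control, with a 95% interval of 4.14 to 4.39. The sh#2 level was 3.18 times that of control (3.09 to 3.28), and sh#7 stood at 1.34 times sh#2 (1.31 to 1.37). These are exact (Clopper-Pearson) intervals from estimated fragment numbers, and they hold the counting error alone. The same kind of interval stands in parentheses after each ratio given hereafter. On the scale of log2(FPKM + 1), the differences were 2.07 for sh#7 minus control, 1.66 for sh#2 minus control and 0.42 for sh#7 minus sh#2.

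To set this against the rest of the table, the comparison was limited to 11069 genes that averaged 1 FPKM or more, and a difference of at least 1 on that log2 scale counted as past 2-fold. Of the 6 members that reached this mean, CES1 alone was past 2-fold above control in sh#7, where 2.35% of all compared genes were higher and 2.48% were lower. CES1 alone was past it in sh#2, where 0.506% of genes were higher and 0.723% were lower. It belonged to the 28 genes past 2-fold higher in both lines, 0.253% of those compared, while 0.524% were lower in both, and since CES1 was chosen for this nothing is read from these counts. Both lines were set against the same control library. By size, 23 compared genes had a larger difference than CES1 in sh#7, and 10 had a larger one in sh#2. These ranks also follow from how CES1 was chosen, and nothing is read from them. No member was past 2-fold between sh#7 and sh#2, where 1.45% of compared genes were higher in sh#7 and 1.52% were lower.

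The median difference of all compared genes was 0.16 in sh#7 and 0.10 in sh#2 against control, so a typical gene was slightly above control in both lines. Of the summed FPKM, the top 100 genes took up 28.98% in sh#7, 31.3% in sh#2 and 34.7% in control. Relative to the median gene, CES1 differed from control by 1.92 in sh#7 and 1.55 in sh#2. Genes above control made up 48.6% of all those past 2-fold in sh#7, or 34.2% when libraries were scaled by median of ratios and 39.1% when scaled by upper quartile. For sh#2 the share was 41.2%, or 30.7% and 32.2% with those scalings.

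**Figure D1:**
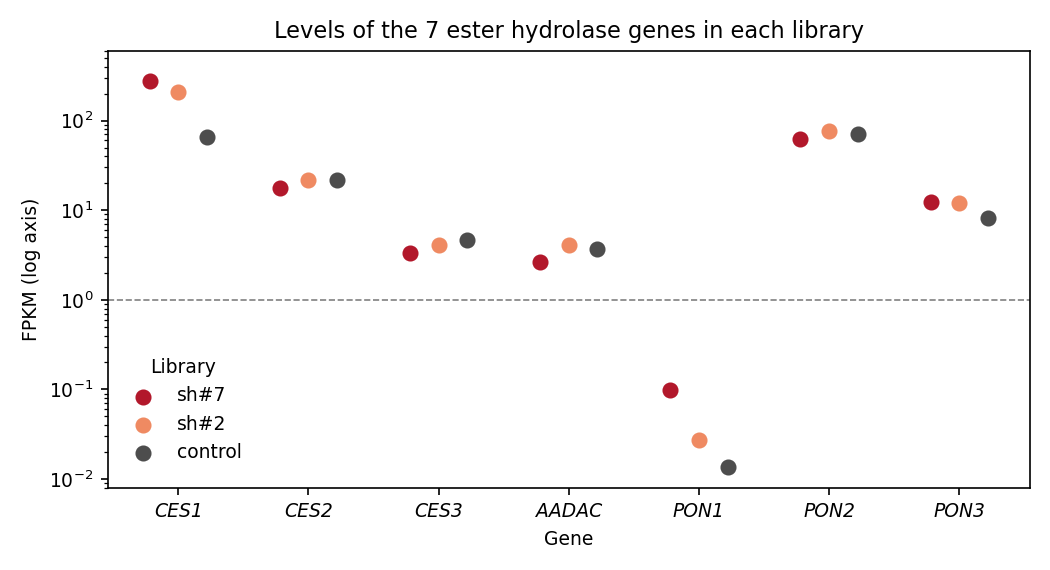
FPKM of the 7 genes on a log axis, with 1 point for each library (sh#7, sh#2 and control from left to right within a gene) and a dashed line at 1 FPKM. CES1 lies at 277 and 207 FPKM in the knockdown lines and at 65.1 FPKM in control, while PON1 lies below 0.1 FPKM in every library.

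The pseudogene next to CES1 stayed low. CES1P1 was at 0.528 FPKM in sh#7, 0.434 FPKM in sh#2 and 0.398 FPKM in control, which stands for about 36.2, 30.5 and 27.6 fragments in that order of libraries. Its ratio to control was 1.32 in sh#7 (0.770 to 2.21) and 1.09 in sh#2 (0.631 to 1.88), so a difference was not detectable at this depth. CES1P1 came to 0.190% of the CES1 level in sh#7, 0.209% in sh#2 and 0.612% in control. Adding it to CES1 left the CES1 difference from control at 2.07 in sh#7 and 1.65 in sh#2. At these small shares the sum could hardly move, and it cannot show which gene shared fragments came from.

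CES2, which favours esters with a small acyl group and activates the prodrug irinotecan, was at 17.5 FPKM in sh#7, 21.98 FPKM in sh#2 and 21.5 FPKM in control. The sh#7 library was the lowest of the 3. Its ratio to control was 0.813 in sh#7 (0.774 to 0.853) and 1.02 in sh#2 (0.975 to 1.07). On the log2 scale these are -0.28 and 0.03, and the sign in sh#2 turned under median-of-ratios scaling (-0.09) and upper-quartile scaling (-0.07). The value in sh#7 was -0.45 under median-of-ratios scaling. CES1 was 15.8 times the level of CES2 in sh#7 and 9.43 times in sh#2, against 3.02 times in control.

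CES3 was at 3.32 FPKM in sh#7, 4.12 FPKM in sh#2 and 4.61 FPKM in control. The knockdown libraries were both below control, by less than 2-fold. Its ratio to control was 0.720 in sh#7 (0.644 to 0.804) and 0.894 in sh#2 (0.805 to 0.991). CES2 and CES3 are neighbours on chromosome 16, and both were lowest in sh#7, with log2 differences from control of -0.28 for CES2 and -0.38 for CES3. This was not particular to the pair, since AADAC on chromosome 3 and PON2 on chromosome 7 were also lowest in sh#7.

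AADAC, which acts on drugs such as phenacetin and flutamide, was at 2.63 FPKM in sh#7, 4.10 FPKM in sh#2 and 3.65 FPKM in control. Again sh#7 was the lowest library. The ratio to control was 0.721 in sh#7 (0.590 to 0.880) and 1.13 in sh#2 (0.943 to 1.34). Directly compared, AADAC in sh#7 was at 64.1% of its level in sh#2 (52.7 to 77.8), a log2 difference of -0.49, and 6.22% of all compared genes lay lower still in that comparison.

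**Figure D2:**
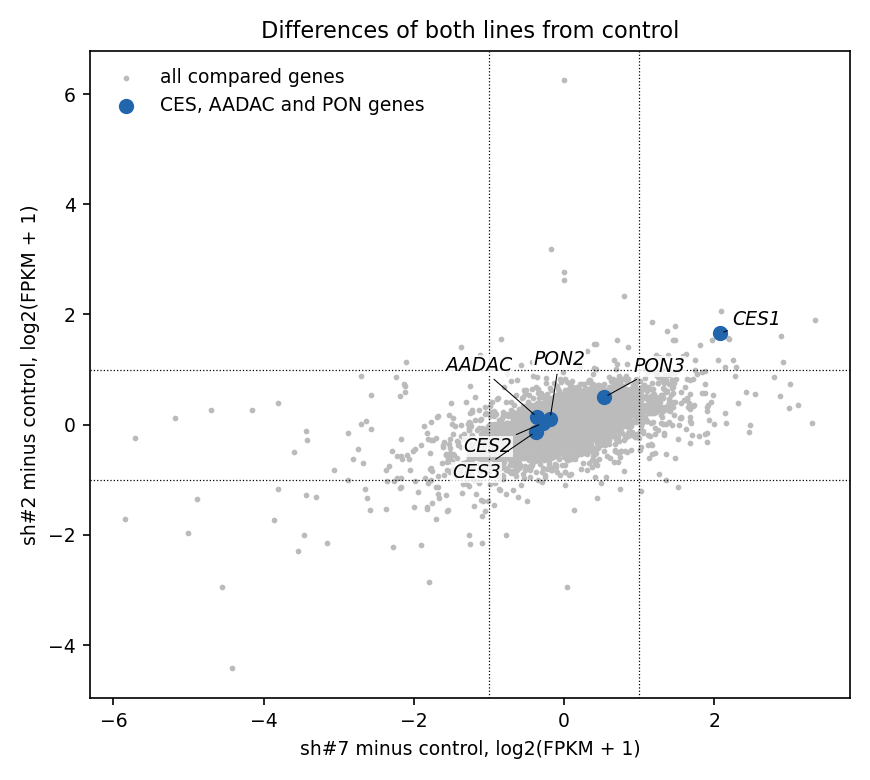
Difference of log2(FPKM + 1) from control in sh#7 (x axis) and in sh#2 (y axis) for 11069 compared genes (grey), with the 6 compared members in blue and dotted lines at 2-fold. CES1 lies past 2-fold on both axes at 2.07 and 1.66, PON3 lies at 0.53 and 0.50, and the other 4 lie below 0 in sh#7.

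PON2, the intracellular paraoxonase found in most tissues, was the most abundant of its family. It was at 62.6 FPKM in sh#7, 76.7 FPKM in sh#2 and 71.4 FPKM in control. The spread between libraries was small and sh#7 was the lowest. The ratio to control was 0.877 in sh#7 (0.842 to 0.913) and 1.07 in sh#2 (1.03 to 1.12). On the log2 scale these are -0.19 and 0.10. Median-of-ratios scaling gave -0.36 in sh#7 and turned the sign in sh#2 to -0.02, and upper-quartile scaling gave -0.30 in sh#7. In sh#2 PON2 sat at the median of all compared genes.

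PON3 was the only other member above the median gene in both lines. It was at 12.3 FPKM in sh#7, 11.99 FPKM in sh#2 and 8.21 FPKM in control. The knockdown libraries lay close together and above control, by less than 2-fold. The ratio to control was 1.503 in sh#7 (1.31 to 1.73) and 1.46 in sh#2 (1.27 to 1.68). The log2 differences from control were 0.53 in sh#7 and 0.50 in sh#2. Among all compared genes, 1327 had a larger difference than PON3 in sh#7, and 528 had a larger one in sh#2.

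PON1, the plasma paraoxonase named for the breakdown of paraoxon, was close to the detection limit. It was at 0.0982 FPKM in sh#7, 0.0274 FPKM in sh#2 and 0.0137 FPKM in control, and its mean left it out of the compared genes. These levels stand for about 10.6 fragments in sh#7, 3.04 in sh#2 and 1.49 in control. The ratio of sh#7 to control was 7.18 with a 95% interval of 1.61 to 478, and that of sh#2 to control was 2.01 (0.237 to 155). Paraoxonase RNA in these libraries was almost all PON2 and PON3.

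The upstream sequences of the paraoxonase trio, which share a locus on chromosome 7 but differ widely in level, are given for comparison. Each line gives the 250 bases before the annotated start, 5′ to 3′ on the gene's strand, from RefSeq on build GRCh38.p14, where all 3 genes lie on the minus strand. PON3 is at chr7:95396376-95396625, PON1 at chr7:95324533-95324782 and PON2 at chr7:95435029-95435278. Capitals mark matches on either strand to the GC box GGGCGG or to CCAAT, and these matches do not overlap each other except within adjacent GC boxes of PON1.
PON3: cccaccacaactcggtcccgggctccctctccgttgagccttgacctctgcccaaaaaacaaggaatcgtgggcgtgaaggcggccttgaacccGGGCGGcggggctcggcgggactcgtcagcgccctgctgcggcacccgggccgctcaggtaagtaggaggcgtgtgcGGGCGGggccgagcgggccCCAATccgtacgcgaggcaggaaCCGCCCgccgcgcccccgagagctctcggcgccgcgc
PON1: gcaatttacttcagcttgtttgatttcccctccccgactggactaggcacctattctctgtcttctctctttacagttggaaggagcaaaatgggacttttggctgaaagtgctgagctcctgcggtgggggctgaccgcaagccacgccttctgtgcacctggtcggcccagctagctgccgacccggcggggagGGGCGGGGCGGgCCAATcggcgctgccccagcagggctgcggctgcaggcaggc
PON2: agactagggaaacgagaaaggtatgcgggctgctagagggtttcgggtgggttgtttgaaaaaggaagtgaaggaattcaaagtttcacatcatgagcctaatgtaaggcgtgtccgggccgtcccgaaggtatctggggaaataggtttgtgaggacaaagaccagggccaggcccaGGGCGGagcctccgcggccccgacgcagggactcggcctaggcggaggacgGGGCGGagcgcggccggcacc
PON3 held 3 GC boxes and PON1 and PON2 held 2 each, a motif found in 42.6% of the 35116 upstream sequences in the table. CCAAT occurred once in PON3 and once in PON1 but not in PON2, and 32.0% of all sequences held it. Neither TATAAA (10.7% of all sequences) nor the antioxidant response element TGACNNNGC (10.9%) was found in these windows. GC content was 72.8% in PON3, 62.4% in PON1 and 60.4% in PON2, against a median of 58% over all sequences. The barely detected PON1 and the abundant PON2 were alike in GC content and in GC boxes. They differed in CCAAT and in the number of CpG, at 13 in PON1 and 19 in PON2. Of the 5 members with an entry, AADAC had the lowest GC content at 35.6% with no CpG, and CES2 had 2 annotated starts at 69.6% and 64% GC. CES1 and CES3 were not matched.

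The order of the members by level changed at its head. Control cells had PON2 first at 71.4 FPKM (95% interval 69.4 to 73.4), then CES1 at 65.1 FPKM (63.3 to 66.8), CES2, PON3, CES3, AADAC and PON1. In sh#7 and sh#2, CES1 came first and PON2 second, and CES2 and PON3 followed in both. CES3 and AADAC were neighbours in this order whose counting intervals overlapped in sh#7 (3.05 to 3.61 and 2.25 to 3.05 FPKM) and in sh#2 (3.82 to 4.44 and 3.63 to 4.61 FPKM), but not in control (4.29 to 4.95 and 3.20 to 4.14 FPKM). In sh#7 the overlap of that pair was only at the edge.

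CES1 made up 73.8% of the summed FPKM of the 7 genes in sh#7 and 63.5% in sh#2, against 37.3% in control. PON2 made up 16.7% in sh#7 and 23.5% in sh#2, against 40.9% in control. The sum itself was 376 FPKM in sh#7, 326 FPKM in sh#2 and 174 FPKM in control. Without CES1 it was 98.5, 119 and 109 FPKM in the same order. These shares do not depend on how a library is scaled.

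**Figure D3:**
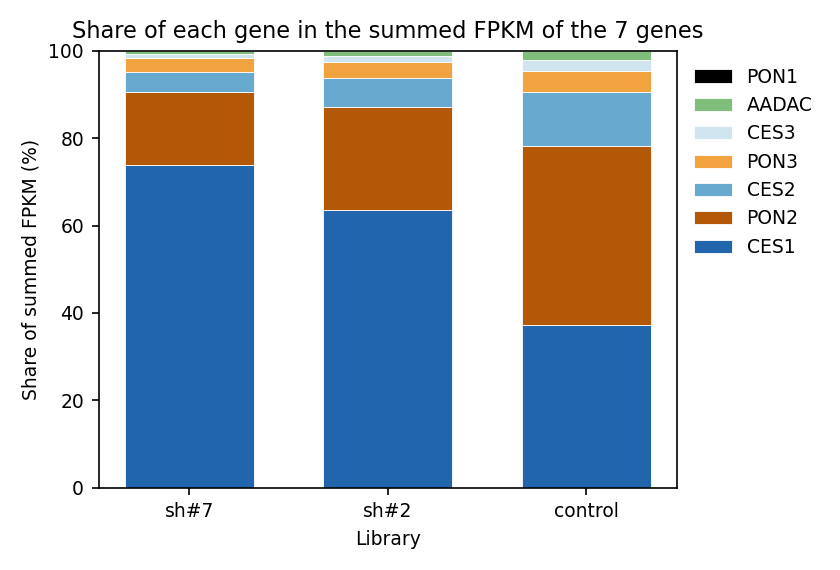
Share of each gene in the summed FPKM of the 7 genes (y axis, percent) in sh#7, sh#2 and control. CES1 fills 73.8% and 63.5% of the bars of the knockdown lines and 37.3% of the control bar, where PON2 is the largest part at 40.9%.

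The chromosomal surroundings were examined since CES1 lies on the same arm of chromosome 16 as FTO. Gene order was taken from RefSeq on GRCh38.p14 and used for order only. CES5A, the adjoining carboxylesterase gene, was at 0.0117 FPKM in sh#7, listed at 0 in sh#2 and at 0.0110 FPKM in control. Between FTO and CES1 the table lists 10 genes, of which 2 were compared and 0 were past 2-fold in either line. Among all compared genes, 2.35% were higher and 2.48% lower past 2-fold in sh#7, and 0.506% and 0.723% in sh#2. With 2 genes compared, nothing is read from this count, which was not repeated under other scalings. IRX3, a homeobox gene, was at 22.4 FPKM in sh#7, 37.3 FPKM in sh#2 and 42.8 FPKM in control. LPCAT2, an acyltransferase gene, was at 6.52 FPKM in sh#7, 4.48 FPKM in sh#2 and 3.29 FPKM in control. On the log2 scale, IRX3 differed from control by -0.91 in sh#7 and -0.20 in sh#2, and LPCAT2 by 0.81 and 0.35.

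Of 32 neighbours at the 4 loci, counting 4 table genes on each side, 12 were compared and 0 were past 2-fold in either line. Of the 8 neighbours of CES1, 1 was compared. The shares of all compared genes were 2.35% higher and 2.48% lower in sh#7, and 0.506% and 0.723% in sh#2. Beside these, nothing is read from the count of 0. Around CES2 and CES3, B3GNT9, a glycosyltransferase gene, differed from control by 0.87 in sh#7 and 0.29 in sh#2. In sh#7 this was the reverse of the 2 carboxylesterase genes. The other compared neighbours of that pair differed in sh#7 by 0.45 (PDP2), 0.15 (FAM96B), 0.64 (CBFB) and -0.25 (C16orf70). At the paraoxonase locus the imprinted gene PEG10 was at 146 FPKM in sh#7, 287 FPKM in sh#2 and 238 FPKM in control, a log2 difference of -0.70 and 0.27 from control. The genes PEG10, IRX3, LPCAT2, CES5A and B3GNT9 were chosen for mention after their values were seen.

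**Figure D4:**
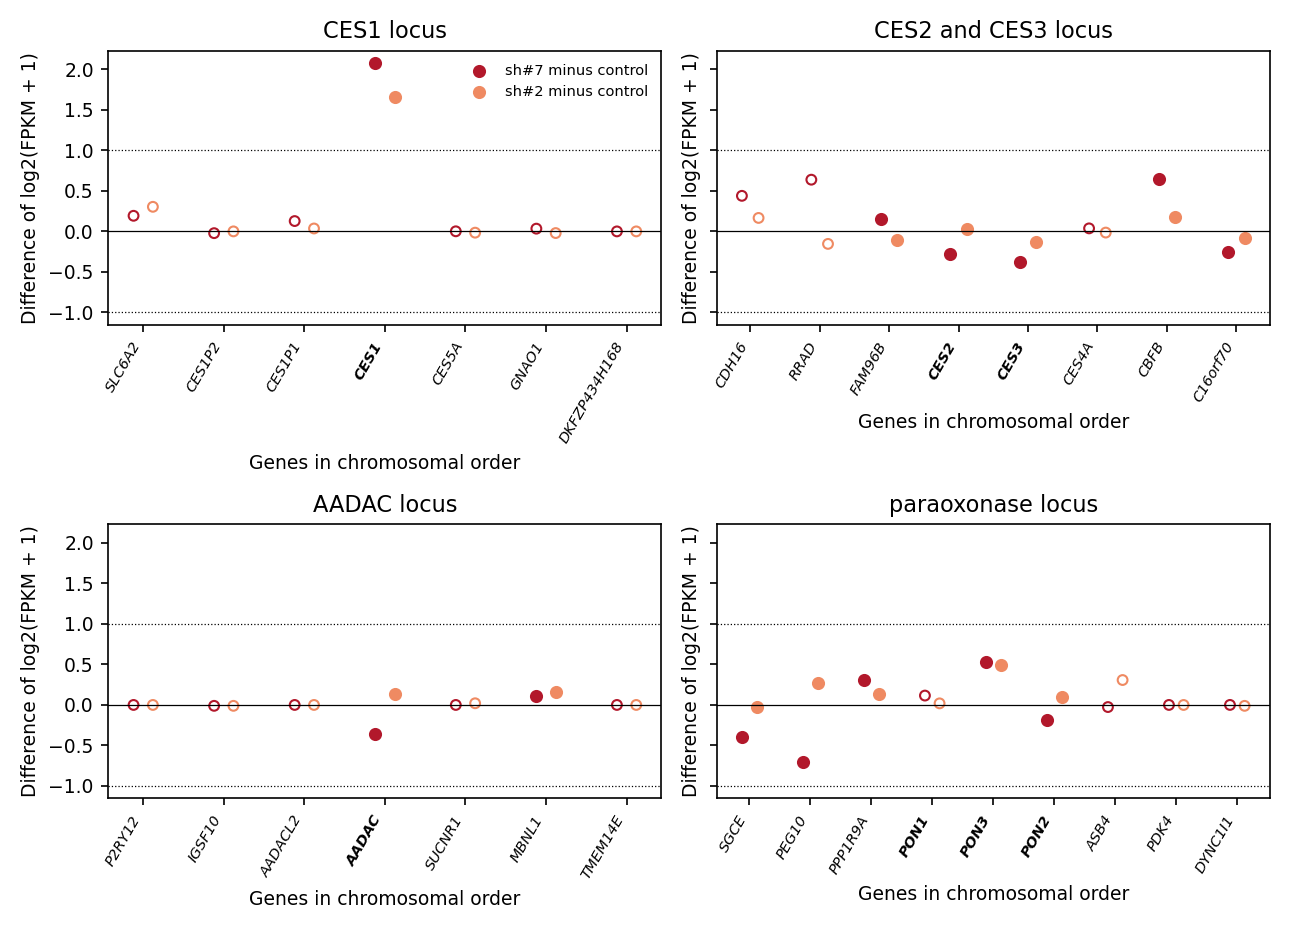
Difference of log2(FPKM + 1) from control (y axis) in sh#7 and sh#2 for each member locus and its 3 nearest neighbours on each side in chromosomal order (x axis), with members in bold, open symbols for genes under a mean of 1 FPKM and dotted lines at 2-fold. CES1 is past 2-fold in both lines at 2.07 and 1.66, and no neighbour plotted is.

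Other hydrolases were next. Each list count from here on stands beside the shares of all compared genes past 2-fold. These were 2.35% higher and 2.48% lower in sh#7, and 0.506% higher and 0.723% lower in sh#2. Of 8 relatives of the carboxylesterases and of AADAC, 7 lay under 1 FPKM on average. The exception was NCEH1, a neutral cholesterol ester hydrolase related to AADAC, at 6.69 FPKM in sh#7, 7.85 FPKM in sh#2 and 4.62 FPKM in control, with log2 differences of 0.45 and 0.65. Of 9 compared genes for other drug hydrolases, 1 was past 2-fold higher and 0 lower in sh#7, and 0 were past 2-fold in sh#2. That gene was EPHX1, the microsomal epoxide hydrolase, at 136 FPKM in sh#7, 66.3 FPKM in sh#2 and 53.7 FPKM in control. Their median difference was 0.04 in sh#7 and 0.12 in sh#2, beside 0.16 and 0.10 for all compared genes.

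CES1 and AADAC also act on stored lipid, and 2 lists cover that side. Of 10 compared neutral lipid hydrolases, 1 was past 2-fold higher and 0 lower in sh#7 and 0 were past it in sh#2. Their medians were 0.18 in sh#7 and -0.06 in sh#2, beside 0.16 and 0.10 for all compared genes. The gene past 2-fold was LIPC, hepatic lipase, at 22.8 FPKM in sh#7, 8.59 FPKM in sh#2 and 8.55 FPKM in control. Of 9 compared genes of very-low-density lipoprotein (VLDL) assembly, 1 was higher and 2 were lower past 2-fold in sh#7 and 0 in sh#2. The VLDL medians were -0.30 in sh#7 and 0.02 in sh#2, beside the same 0.16 and 0.10.

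The 3 VLDL genes went different ways. MTTP, the transfer protein that loads lipid onto apolipoprotein B, was at 1.86 FPKM in sh#7, 15.1 FPKM in sh#2 and 16.02 FPKM in control. SOAT2, which makes cholesteryl esters, was at 4.53, 9.65 and 14.4 FPKM in the same order. DGAT2, which makes triglyceride, was at 73.3 FPKM in sh#7, 51.5 FPKM in sh#2 and 28.96 FPKM in control, a log2 difference of 1.31 and 0.81. Of these 3, only DGAT2 was above control in both lines as CES1 was.

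HDL is the particle that carries PON1 and PON3, and its genes were the next list. Of 11 compared, 0 were past 2-fold higher and 5 were lower in sh#7, and 0 were higher and 1 was lower in sh#2. Their medians were -0.20 in sh#7 and -0.36 in sh#2, beside 0.16 and 0.10 for all compared genes. APOM, an apolipoprotein that carries sphingosine-1-phosphate, was past 2-fold lower in both lines, at 8.70 FPKM in sh#7, 41.5 FPKM in sh#2 and 140.2 FPKM in control. APOA1, the main HDL protein, was at 1081 FPKM in sh#7, 2629 FPKM in sh#2 and 2616 FPKM in control. APOA2, APOC3 and CLU were the others past 2-fold lower in sh#7, at -1.10, -1.62 and -1.10. ABCA1, the cholesterol exporter that supplies HDL, which was chosen for mention after its values were seen, was above control in both lines like PON3, at 0.49 in sh#7 and 0.25 in sh#2.

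**Figure D5:**
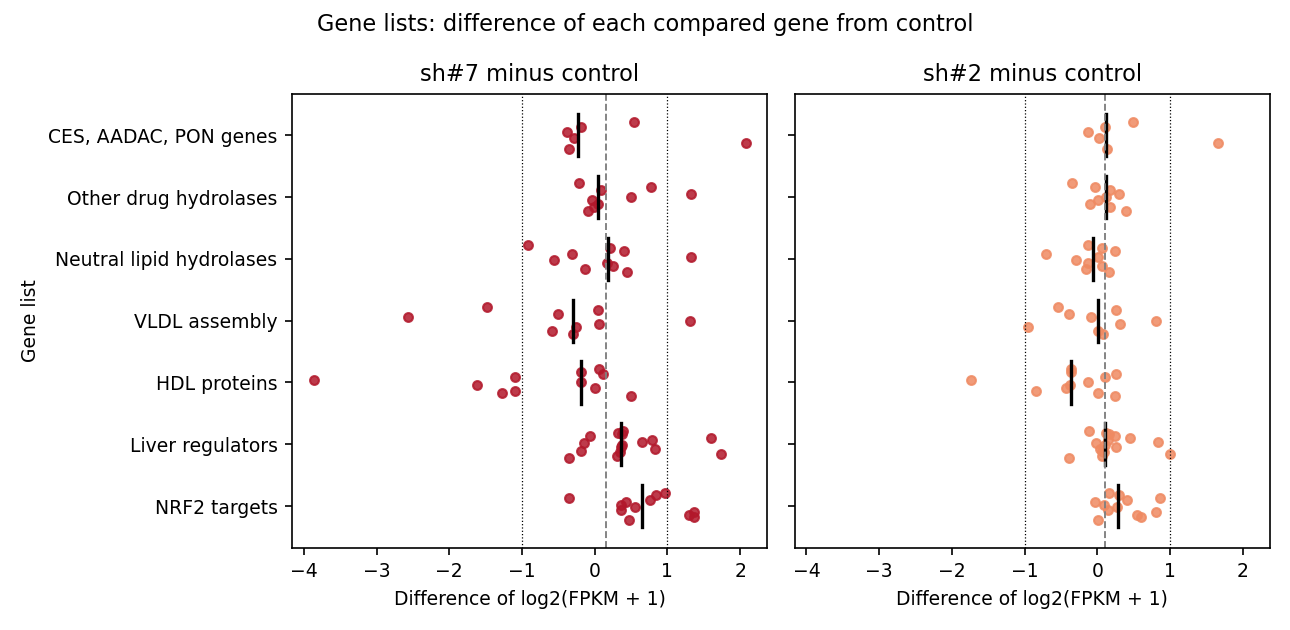
Difference of log2(FPKM + 1) from control (x axis) in sh#7 (left) and sh#2 (right) for every compared gene of 7 lists (y axis), where black bars are list medians, dashed lines the median of all compared genes (0.16 and 0.10) and dotted lines 2-fold. In sh#7, HDL genes span -3.86 to 0.49, NRF2 targets -0.36 to 1.37 and liver regulators -0.36 to 1.74.

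General regulators of liver and drug-metabolism genes were listed as well, and a link of any of them to the 7 members was not tested. Of 16 compared, 2 were past 2-fold higher and 0 lower in sh#7, and 0 were past it in sh#2. Their medians were 0.37 in sh#7 and 0.11 in sh#2, beside 0.16 and 0.10 for all compared genes. CEBPA, a liver transcription factor, was at 121 FPKM in sh#7, 71.9 FPKM in sh#2 and 35.5 FPKM in control, and its log2 difference in sh#2 was 1.00 after rounding but just under the 2-fold threshold. NR3C1, the glucocorticoid receptor, was at 14.5 FPKM in sh#7, 5.99 FPKM in sh#2 and 4.13 FPKM in control.

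Targets of NRF2, a factor that induces antioxidant and drug-metabolizing enzymes, were also listed. Of 12 compared, 3 were past 2-fold higher and 0 lower in sh#7, and 0 were past it in sh#2. Their medians were 0.66 in sh#7 and 0.28 in sh#2, beside 0.16 and 0.10 for all compared genes. Among them were AKR1B10, at 1.37 in sh#7 and 0.61 in sh#2, and AKR1C1, at 1.30 in sh#7 and 0.54 in sh#2. AKR1C1 has a near-identical relative, AKR1C2, and how fragments were divided between them is uncertain. SLC7A11, the cystine transporter, went the other way between the lines, at 1.28 FPKM in sh#7, 4.31 FPKM in sh#2 and 1.92 FPKM in control.

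The genes with a pattern most like CES1 were sought among 8163 other genes that averaged 5 FPKM or more, by the distance between their pairs of log2 differences from control in the 3 libraries. The nearest was GSTA1, a glutathione transferase, at a distance of 0.41, with 103 FPKM in sh#7, 101 FPKM in sh#2 and 23.4 FPKM in control. AKR1C2 followed at 0.51, then the actin-bundling gene FSCN1 at 0.62, the acetyl-CoA synthetase gene ACSS1 at 0.64 and the retinal dehydrogenase gene ALDH1A1 at 0.65. Among these 5, GSTA1 (0.03) and ACSS1 (0.34) differed less between sh#7 and sh#2 than CES1 did (0.42), while AKR1C2, FSCN1 and ALDH1A1 differed by 1.07 to 1.24. GSTA1 also has a near-identical relative.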

How the data were processed

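RNA was sequenced from 3 Hep-G2 cultures with 1 library per group. The authors deposited 1 table with a value for each gene symbol and library. Its header names no unit, and the deposited values were read as FPKM, which the authors would have scaled by transcript length and library total, from the tracking_id column that Cufflinks writes, from Cufflinks among the named tools and from the values themselves. The submitters' processing notes name the tools HTSeq, STAR 2.4.0j and Cufflinks 2.2.1 and the build hg19; the sources used here do not tie a tool to a step. Since FPKM is relative to the library's total, very abundant genes can move the values of the rest. FPKM values are not counts and each group held 1 library, so no test was made and no p-value is given. Differences are of log2(FPKM + 1), which makes differences of low genes look smaller. The genes compared averaged 1 FPKM or more and were counted at 2-fold.

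The members and lists were chosen with earlier results of these data known. The text names the 7 members and FTO, list genes past 2-fold in any comparison or, in a list with none, the 2 with the largest mean difference, and the 5 genes most like CES1; 1 list gene that the rule names is not reported here. Control depth was estimated from single-fragment steps in 1880 genes with 1 transcript over 800 bases in GENCODE 29, with 200 bases taken off each length. The depths of sh#7 and sh#2 were set from the most common ratio to control in low genes, among ratios close to equality only. GENCODE 29 and the authors' build differ, so fragment numbers are approximate. Alternatives were a pseudocount of 0.1, 2 scalings, no minimum or a minimum mean of 5 FPKM, and a 1.5-fold threshold. Calculations used Python 3.11.15, pandas 2.3.3, SciPy 1.17.1 and Biopython 1.88, and the 2-fold call was tested on simulated data. The simulation held counting error alone and no variation between cultures. It therefore does not show how often single cultures differ past 2-fold.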

Additional observations from a re-analysis of the deposited data

Results flagged for a closer look

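In 3 members sh#7 and sh#2 lay on opposite sides of control, a difference that was not tested, since each group held 1 library. On the log2(FPKM + 1) scale, CES2 had a difference from control of -0.28 in sh#7 and of 0.027 in sh#2. AADAC differed by -0.36 in sh#7 and 0.14 in sh#2. PON2 differed by -0.19 in sh#7 and 0.10 in sh#2. For CES2 and AADAC the counting interval of the sh#2 ratio includes 1, and under median-of-ratios scaling CES2 and PON2 lay below control in both lines.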

How the results depend on the processing

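No paired analysis was possible because single libraries were compared, which also leaves no replicate to omit. The CES1 difference from control was 1.90 in sh#7 and 1.54 in sh#2 under median-of-ratios scaling, and 1.96 and 1.56 under upper-quartile scaling. Between sh#7 and sh#2 it was 0.36 under median-of-ratios scaling. Its other values stayed within their counting intervals. That includes the sum with CES1P1, an alternative chosen after seeing the data, which could hardly move at the low CES1P1 level. CES1, which was chosen for its rise, was past 2-fold in both lines under each alternative, and counts of members were equal in all 36 repeats. Members other than CES1 had 0 of 54 values past 2-fold. The counts rest partly on the pseudocount. PON3 in sh#7 was 1.503 times control but not past the 1.5-fold threshold on the log2(FPKM + 1) scale, at 0.53. With a pseudocount of 1, PON1 was too low to be called. A pseudocount of 0.1 gave 394 genes higher than control in sh#7, 106 higher and 138 lower in sh#2, and 252 higher in sh#7 than in sh#2, in place of 260, 56, 80 and 161. A minimum mean of 5 FPKM gave 146, 24, 49 and 82, as it leaves fewer genes. With a 1.5-fold threshold, the number above control was 1064 for sh#7 and 295 for sh#2, and the number below was 684 for sh#7 and 301 for sh#2, in place of 260, 56, 275 and 80. At that threshold 569 genes were above and 504 below when sh#7 was set against sh#2, in place of 161 and 168. The median of all compared genes, 0.16 in sh#7 and 0.10 in sh#2, was 0.0028 and -0.00024 under median-of-ratios scaling, and list medians as printed shifted with it. Taken relative to the median of all genes, 93 list medians stayed within 0.1 of their value and 12 did not. Of the list counts, 197 were within 1.5 times and 13 were not. Among these, neutral lipid hydrolases had 1 gene lower in sh#7 and VLDL genes 1 lower in sh#2 with a pseudocount of 0.1 and with either scaling, in place of 0, and regulators and NRF2 targets each had 1 higher in sh#2 with a pseudocount of 0.1, in place of 0. Of the 5 genes most like CES1, 3 were shared with a pseudocount of 0.1. Counting depth limits PON1 and CES1P1 most.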
